A study of Mus musculus with 23 samples.

Results

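MHC class II molecules are the surface proteins with which antigen-presenting cells show peptides to CD4+ T cells, and the genes described here make, load and control them. The set was drawn up as 8 named genes, out of 18194 genes that the arrays measured with a probe set of their own, and 7 of the 8 had such a probe set. They are H2-Aa, H2-Ab1 and H2-Eb1 (chains of the classical molecules), H2-DMa and H2-DMb1 (chains of the peptide-exchange factor DM), H2-Oa (a chain of its inhibitor DO), Cd74 (the invariant chain) and Ciita (the class II transactivator). H2-DMb1 was measured only by probe sets that it shares with its near copy H2-DMb2, so counts below run over the other 7.

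Total RNA of whole mouse colon was hybridised to 23 expression arrays, 1 per sample. The sample titles name BALB/c for the wild type and give no strain for the knockout. The genotypes were Fn14 knockout, lacking the receptor encoded by Tnfrsf12a, and wild type. The groups were knockout with TNBS (7 arrays), knockout without TNBS (5), wild type with TNBS (6) and wild type without TNBS (5). TNBS, a hapten used to bring on chronic colitis, was given into the rectum at 0.2% in an ethanol and saline mixture for 6 weeks, with doses raised from 1.0 to 2.0 µl per g body weight and tissue taken 3 days after the last one. The labels do not say whether the mice without TNBS received the ethanol vehicle, so a TNBS difference covers the whole procedure. They also do not say how the knockout line was made, or whether replicates are separate mice, so p-values measure only the spread between these samples.

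Class II molecules are made chiefly by dendritic cells, macrophages and B cells, and epithelium can make them under interferon gamma. The alpha and beta chains assemble on the invariant chain, proteases trim it to a fragment in the groove, and DM exchanges that fragment for a peptide while DO restrains DM. Transcription depends on Ciita, which is recruited to a promoter module of X and Y boxes bound by RFX and NF-Y.

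The promoter sequences are shown because Ciita, 1 of the members, acts through this module, and they show which members hold its letters. RefSeq windows of assembly GRCm38.p6, 250 bases before to 50 after a gene's start, were found for 5 of the 8 members, all on chromosome 17. Below, the 150 bases before the start are given 5′ to 3′ on the gene's strand, with capitals for the start of the X box, searched as GNAAC, and the Y box, searched as TGATTGG, whose other strand holds the CCAAT box. H2-Aa lies at chr17:34287824-34287973 on the minus strand, and the others are on the plus strand, H2-Eb1 at chr17:34305717-34305866, H2-DMb1 at chr17:34153041-34153190 and H2-Oa at chr17:34092229-34092378.
H2-Aa: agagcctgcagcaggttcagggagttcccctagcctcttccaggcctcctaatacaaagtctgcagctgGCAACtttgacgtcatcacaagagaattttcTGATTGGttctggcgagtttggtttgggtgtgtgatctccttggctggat
H2-Eb1: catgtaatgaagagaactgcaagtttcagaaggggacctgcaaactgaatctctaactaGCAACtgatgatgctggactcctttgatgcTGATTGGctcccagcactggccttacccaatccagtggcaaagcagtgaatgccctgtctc
H2-DMb1: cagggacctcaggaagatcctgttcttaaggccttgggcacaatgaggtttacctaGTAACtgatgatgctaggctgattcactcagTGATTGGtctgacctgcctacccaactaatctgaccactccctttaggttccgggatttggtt
H2-Oa: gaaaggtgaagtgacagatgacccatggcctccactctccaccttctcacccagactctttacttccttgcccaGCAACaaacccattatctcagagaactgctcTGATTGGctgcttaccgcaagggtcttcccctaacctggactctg

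In these 4 members GNAAC was followed by TGATTGG on the same strand, 30 or 31 bases further on from start to start. The 2 windows of H2-DMa held no such pair, which says only that these letters are not there. With H2-Ob and H2-Eb2 added, 6 of 8 class II genes with a window held the pair at 28 to 31 bases. Of 32851 mouse promoter windows, 187 (0.569%) held it on either strand with starts 20 to 40 bases apart. TGATTGG on either strand, with or without the pair, was in 2568 (7.82%). The letters and the spacing were chosen after these sequences had been read, and a match is a description, not a binding site. H2-Ab1, Cd74 and Ciita are named only.

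The arrays differed little in their share of values at the floor and in correlation, but their medians over all genes moved between groups. The medians were 6.485 to 6.714 in TNBS knockout arrays and 6.525 to 6.643 in knockout arrays without TNBS. They were 6.625 to 6.805 in TNBS wild-type arrays and 6.49 to 6.568 in wild-type arrays without TNBS, which did not overlap. Expression is given as deposited, in log2 units, with a floor at 2.17 that held 27.9% of all values, between 27.1% and 28.8% on single arrays. Arrays of a group correlated at 0.989 to 0.998 over all genes, and no 2 were identical. Tnfrsf12a was 3.84 to 4.17 in TNBS knockout arrays and 4.03 to 4.17 in knockout arrays without TNBS, against 6.77 to 8.25 in TNBS wild-type arrays and 5.86 to 7.16 in wild-type arrays without TNBS, so each array matched its genotype label. The Gapdh 3′ minus 5′ difference, a measure of RNA integrity in log2 units, was 0.906 to 0.988 in TNBS knockout arrays, 0.956 to 1.072 in knockout arrays without TNBS, 0.965 to 1.17 in TNBS wild-type arrays and 1.002 to 1.104 in wild-type arrays without TNBS.

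One array stood apart on a class II gene. TNBS knockout array 2 read 3.36 for H2-Ea, the alpha chain paired with H2-Eb1, where the other 6 arrays of its group read 10.80 to 12.04. It remains in the results below, and those that move without it are given both ways. Among the members it held the lowest value of its group for H2-Aa and H2-DMa and the second lowest for H2-Ab1, H2-Eb1 and Cd74.

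The main pattern was shared by 5 members. H2-Aa, H2-Ab1, H2-Eb1, H2-DMa and Cd74 were lower in TNBS knockout colons than in TNBS wild-type colons by 0.75 to 1.30 log2 units, 1.68- to 2.45-fold, with no overlap between the groups. Of all genes 6.72% were called lower there, and 2.68% were lower with no overlap. With TNBS, 4 of 7 members were higher in the knockout, where 4.08% of all genes were, and 7 of 7 in wild type, where 10.2% were. The 4 became 7 without TNBS knockout array 7. The difference between the 2 TNBS effects passed the test for none of them. A gene was called when its adjusted p was under 0.05 (limma, Benjamini-Hochberg over all genes).

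**Figure D1:**
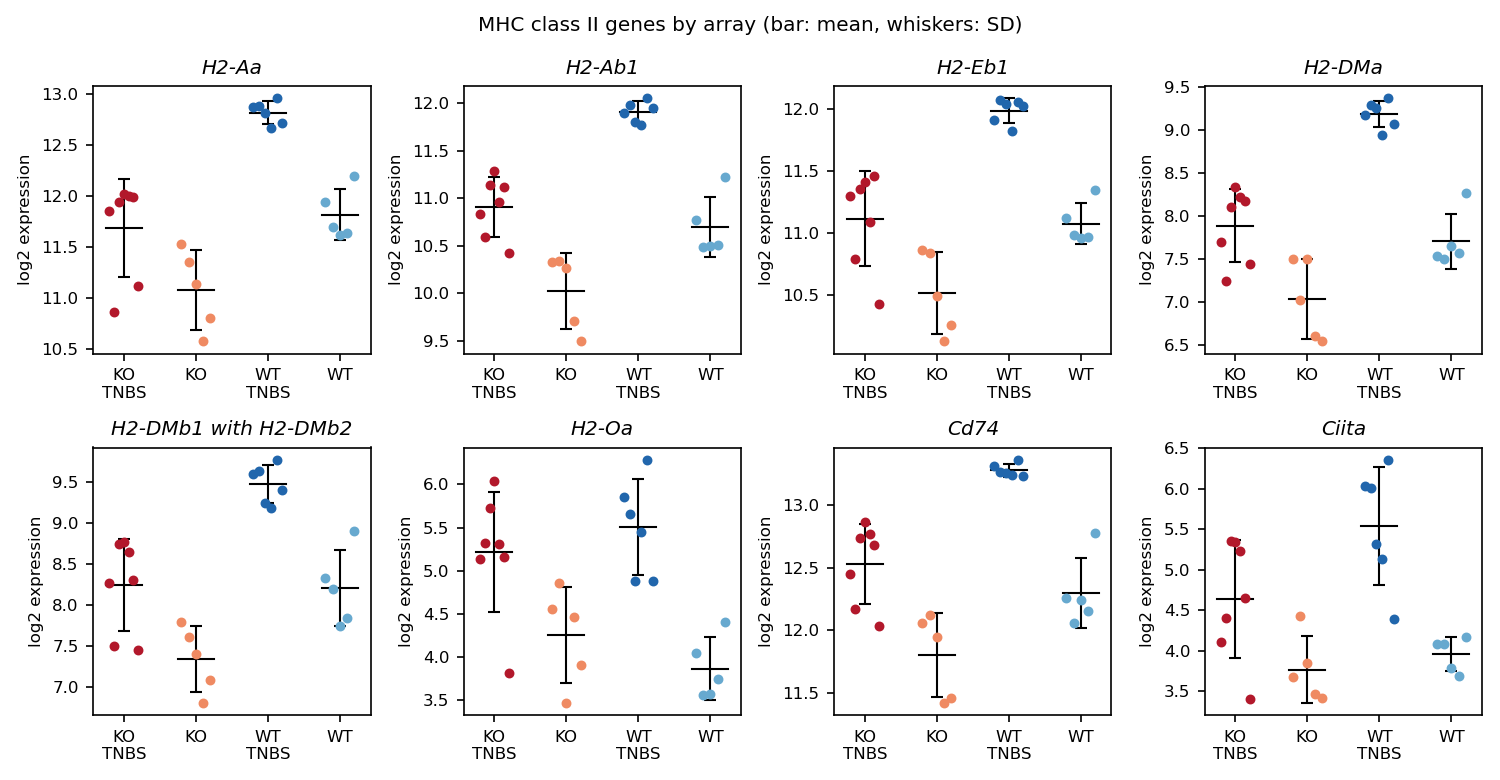
Log2 expression of the 8 MHC class II members on each array, with knockout (KO) and wild-type (WT) groups with and without TNBS on the horizontal axis. Points are arrays, bars are group means and whiskers are SD. The panel of H2-DMb1 shows a probe set shared with H2-DMb2. Wild type with TNBS has the highest mean in every panel.

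H2-Ab1 encodes the beta chain of the I-A molecule. It read 10.42 at the lowest, 10.96 at the median and 11.29 at the highest of 7 TNBS knockout arrays, and 10.33, 10.33, 10.26, 9.70 and 9.49 in knockout arrays without TNBS. In TNBS wild-type arrays it read 11.77 at the lowest, 11.92 at the median and 12.05 at the highest, and in wild-type arrays without TNBS 10.77, 10.49, 10.50, 10.51 and 11.22. Every TNBS wild-type array lay above every other array, and the TNBS knockout arrays overlapped the wild-type arrays without TNBS. Knockout against wild type with TNBS, the difference was -1.003 ± 0.16 (SE; adjusted p = 0.000661). H2-Ab1 was higher with TNBS by 0.88 ± 0.17 in the knockout (adjusted p = 0.00383) and 1.21 ± 0.18 in wild type (adjusted p = 0.000105), without overlap in either.

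H2-Aa encodes the alpha chain of the same I-A molecule. Its lowest, median and highest values were 10.87, 11.95 and 12.02 in TNBS knockout arrays, and its values were 11.53, 11.36, 11.14, 10.58 and 10.81 in knockout arrays without TNBS. The TNBS wild-type arrays read 12.67, 12.84 and 12.96 at the lowest, median and highest, and the wild-type arrays without TNBS 11.94, 11.70, 11.62, 11.64 and 12.20. Again the TNBS wild-type arrays stood above all others. With TNBS the knockout was lower by 1.13 ± 0.19 log2 units, a 2.19-fold difference (log2 difference -1.13, adjusted p = 0.000884). The TNBS difference in the knockout, 0.60 ± 0.20, did not pass the test (adjusted p = 0.0685), and it passed without knockout array 1, TNBS knockout array 2 or TNBS knockout array 7 (adjusted p between 0.0122 and 0.0397). In wild type H2-Aa was higher with TNBS by 0.999 ± 0.21 (adjusted p = 0.00239).

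H2-Eb1 encodes the beta chain of I-E. Its values were 10.43, 11.30 and 11.46 at the lowest, median and highest in TNBS knockout arrays, and 10.86, 10.84, 10.49, 10.13 and 10.26 in knockout arrays without TNBS. TNBS wild-type arrays read 11.82, 12.03 and 12.08 at the lowest, median and highest, against 11.12, 10.98, 10.96, 10.97 and 11.35 in wild-type arrays without TNBS. No TNBS knockout array reached the lowest TNBS wild-type array. The difference was -0.87 ± 0.15 between the genotypes with TNBS (adjusted p = 0.00123). With TNBS it was higher by 0.60 ± 0.16 in the knockout (adjusted p = 0.0259), a call that ended when any of knockout arrays 3, 4 or 5 or TNBS knockout arrays 3, 4 or 6 was left out (adjusted p 0.0532 to 0.0829). In wild type it was higher by 0.91 ± 0.17 (adjusted p = 0.000863).

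H2-DMa encodes the alpha chain of DM, the peptide-exchange factor. Its values were 7.24, 8.10 and 8.34 at the lowest, median and highest in TNBS knockout arrays, and 7.50, 7.02, 7.50, 6.60 and 6.54 in knockout arrays without TNBS. TNBS wild-type arrays read 8.94, 9.21 and 9.37 at the lowest, median and highest, and wild-type arrays without TNBS 7.53, 7.50, 7.66, 7.58 and 8.27. The TNBS groups did not overlap, and among wild-type arrays without TNBS, array 5 was high for its group. H2-DMa was 2.45-fold lower in the knockout with TNBS (log2 difference -1.30 ± 0.20, adjusted p = 0.000365). The TNBS difference was 0.85 ± 0.21 in the knockout (adjusted p = 0.0151) and 1.48 ± 0.22 in wild type (adjusted p = 9.82e-05).

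The partner chain H2-DMb1 could be read only together with H2-DMb2. One shared probe set read 7.44, 8.31 and 8.78 at the lowest, median and highest in TNBS knockout arrays, against 9.19, 9.50 and 9.78 in TNBS wild-type arrays, with no overlap. Its difference was -1.23 ± 0.24 between genotypes with TNBS (adjusted p = 0.00329, over all 45101 probe sets), and the other shared probe set gave -0.998 ± 0.18 (adjusted p = 0.00203). With TNBS the 2 probe sets were higher by 0.91 and 0.77 in the knockout (adjusted p = 0.0431 and 0.0244) and by 1.27 and 1.05 in wild type (adjusted p = 0.00348 and 0.00179).

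Cd74 encodes the invariant chain. It read 12.03, 12.68 and 12.87 at the lowest, median and highest in TNBS knockout arrays, and 12.06, 12.13, 11.95, 11.42 and 11.46 in knockout arrays without TNBS. TNBS wild-type arrays read 13.23, 13.26 and 13.37 at the lowest, median and highest, with an SD of 0.051, and wild-type arrays without TNBS 12.26, 12.06, 12.25, 12.16 and 12.78. The TNBS wild-type arrays were the tightest group of any member and lay above all others. The genotypes differed with TNBS by -0.75 ± 0.15 (adjusted p = 0.00311), 1.68-fold. Cd74 was higher with TNBS by 0.73 ± 0.16 in the knockout (adjusted p = 0.00713) and 0.98 ± 0.16 in wild type (adjusted p = 0.000351).

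H2-Oa and Ciita passed the test with TNBS in wild type but not between the genotypes. H2-Oa, the DO alpha chain, read 3.82, 5.31 and 6.04 at the lowest, median and highest in TNBS knockout arrays, and 4.56, 4.86, 3.47, 4.47 and 3.91 in knockout arrays without TNBS. TNBS wild-type arrays read 4.88, 5.55 and 6.29 at the lowest, median and highest, and wild-type arrays without TNBS 4.04, 3.56, 3.57, 3.74 and 4.41. The 2 TNBS groups overlapped over most of their range, and the difference of -0.29 ± 0.31 had a 95% interval from -0.95 to 0.37 (adjusted p = 0.689). In the knockout its TNBS difference was 0.96 ± 0.33 (adjusted p = 0.0777), and it passed without TNBS knockout array 7, the lowest array of its group (1.197, adjusted p = 0.0107). In wild type H2-Oa was 3.12-fold higher with TNBS (log2 difference 1.64 ± 0.34, adjusted p = 0.00244), a call that ended with values under 5 raised to 5 (0.54, adjusted p = 0.0801).

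Ciita, which switches the class II promoters on, read 3.41, 4.65 and 5.35 at the lowest, median and highest in TNBS knockout arrays, and 3.68, 4.43, 3.85, 3.47 and 3.42 in knockout arrays without TNBS. TNBS wild-type arrays read 4.40, 5.67 and 6.36 at the lowest, median and highest, and wild-type arrays without TNBS 4.09, 4.09, 3.79, 3.69 and 4.17. The TNBS groups overlapped. The TNBS difference was 0.87 ± 0.34 in the knockout (adjusted p = 0.128) and passed without TNBS knockout array 7 (1.08, adjusted p = 0.0352). In wild type Ciita was 2.98-fold higher with TNBS (log2 difference 1.58 ± 0.36, adjusted p = 0.0044). Between the genotypes with TNBS it was -0.90 ± 0.33, with an interval from -1.58 to -0.22 (adjusted p = 0.0881), and it passed without TNBS wild-type array 6 (-1.13, adjusted p = 0.0305). A second Ciita probe set close to the floor, with means of 2.42 in TNBS knockout and 3.18 in TNBS wild-type arrays, gave -0.76 ± 0.19 (adjusted p = 0.0139 over all probe sets). The remaining Ciita probe set, also close to the floor, gave -0.28 ± 0.13 and did not pass (adjusted p = 0.232).

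**Figure D2:**
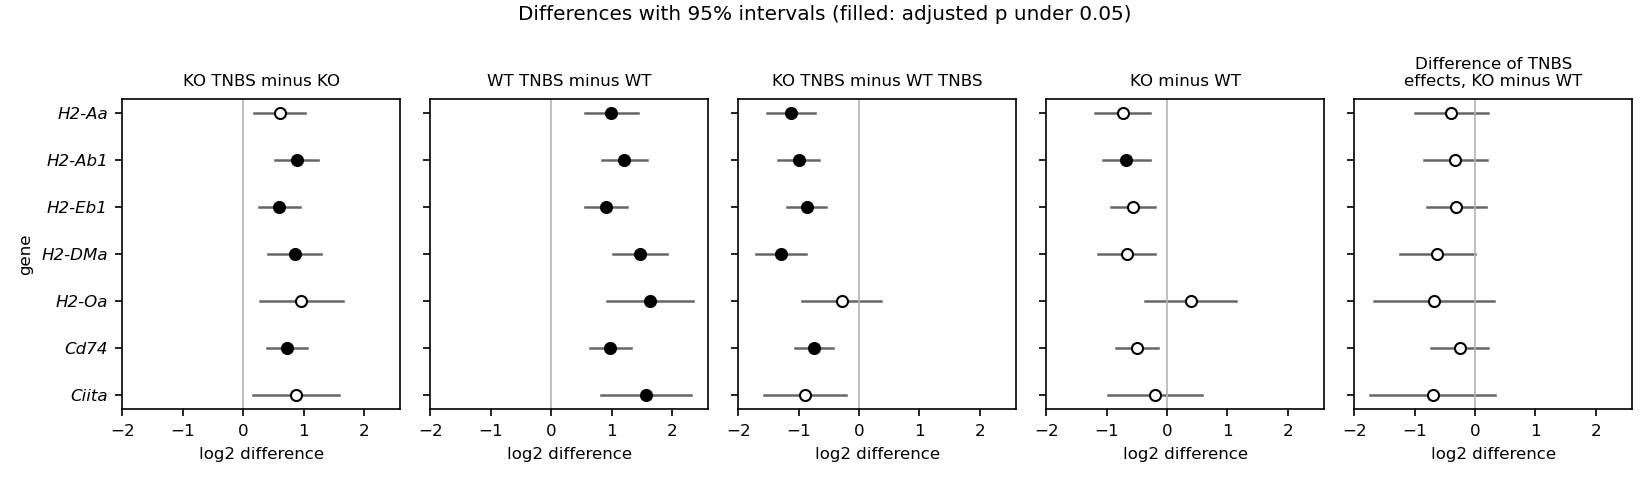
Log2 differences of the 7 members with their own probe set in 5 comparisons, 1 panel each, with 95% intervals as lines. Filled points have adjusted p under 0.05 (limma). Filled are 4 of 7 points for TNBS in the knockout, 7 for TNBS in wild type, 5 for knockout against wild type with TNBS, and 0 for the difference of TNBS effects.

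Counted over the members, 4 of 7 were higher with TNBS in the knockout, where 8.55% of all genes passed the test and 4.08% passed as higher. The median member difference was 0.85, against 0 over all genes, and 1 of 7, H2-Ab1, had no overlap, which held for 1.97% of genes in that direction. Without TNBS knockout array 7 the count was 7, and without TNBS knockout array 2 it was 5. In wild type 7 of 7 were higher with TNBS, where 16.5% of genes passed and 10.2% passed as higher. Their median was 1.21, and 7 of 7 had no overlap, which held for 6.99% of genes.

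Knockout against wild type with TNBS, 5 of 7 were lower, where 10.5% of genes passed, 6.72% as lower and 3.73% as higher. The median was -0.90, against 0 over all genes. These 5 had no overlap, which held for 2.68% of genes in that direction, and the 5 remained called without TNBS knockout array 2. The 2 TNBS comparisons share arrays with this one, so the counts are not independent of each other.

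Without TNBS, 1 of 7 was lower in the knockout, H2-Ab1 (-0.68 ± 0.19, adjusted p = 0.0411), where 4.83% of genes passed, 1.91% as lower and 2.92% as higher. Its call ended when any of 8 arrays was left out: wild-type arrays 1, 2, 4 or 5, TNBS wild-type array 6, knockout arrays 4 or 5, or TNBS knockout array 1 (adjusted p 0.05 to 0.111). H2-Aa (-0.74 ± 0.22, adjusted p = 0.0565) and H2-Eb1 (-0.56 ± 0.17, adjusted p = 0.0698) did not pass. These 3 genes had no overlap, which held for 2.18% of genes in that direction. H2-Aa passed without knockout array 1 or TNBS knockout arrays 2 or 7 (adjusted p 0.0262 to 0.0441), and H2-Eb1 without knockout array 1 or TNBS knockout array 7 (adjusted p 0.0289 and 0.0439). H2-DMa stood at -0.67 ± 0.23 (adjusted p = 0.0915), Cd74 at -0.50 ± 0.17 (adjusted p = 0.0973), Ciita at -0.20 ± 0.37 (adjusted p = 0.967) and H2-Oa at 0.39 ± 0.36 (adjusted p = 0.667). Without any adjustment 5 of 7 had p under 0.05 (limma). The share of all genes at that level was not counted, so these 5 cannot be set against it.

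The TNBS effect was smaller in the knockout for all 7 members by estimate, by 0.25 (Cd74) to 0.70 (Ciita) log2 units, and the test of that difference passed for 0 of 7 in limma, with 0 of 7 also at an unadjusted p under 0.05. Over all genes 2% passed it. The widest reach of the 95% intervals was from -1.74 to 0.33, so a smaller TNBS effect in the knockout was neither shown nor bounded near 0 by these arrays. For H2-DMa, which came nearest, the interval was -1.25 to 0.003 (adjusted p = 0.322).

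By group mean, wild type with TNBS was the highest for 7 of 7 members. The knockout without TNBS was the lowest for 6 of 7, the exception being H2-Oa, for which wild type without TNBS was lowest. TNBS knockout and wild type without TNBS, the middle groups, overlapped for 7 of 7 members. Over 23 arrays the 10 pairs among the 5 members called between the genotypes with TNBS correlated at 0.954 to 0.989. After each group's mean was removed these pairs gave 0.754 to 0.947. The 5 were grouped by differences on these same arrays, so the correlation over 23 arrays is not separate support. Genes outside the set came as close over 23 arrays, such as Icos to H2-Ab1 (0.968) and Ncf4 to Cd74 (0.967). The 11 pairs with H2-Oa or Ciita gave 0.581 to 0.859, and 0.375 to 0.782 after removal.

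The further probe sets mostly went the same way. Of 17 probe sets naming a member, 8 were higher with TNBS in the knockout, where 2.31% of all probe sets passed as higher, and 15 in wild type, where 5.9% did. Between the genotypes 12 were lower in the knockout with TNBS, where 4.45% of probe sets passed as lower, and 1 without TNBS, where 1.34% did. The size differed between probe sets of a gene. For H2-Ab1 the 3 probe sets gave -1.003, -1.24 and -1.68 between the genotypes with TNBS. For H2-Aa another probe set gave -0.52, and 2 more passed no test, 1 of them within 8.805 to 9.427 on all arrays and the other at the floor. Several of these can hybridise to transcripts of related H2 genes, so part of a value may belong to another class II gene.

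Other class II genes were examined beside them. H2-Ob, the DO beta chain, was higher with TNBS in wild type (1.18 ± 0.36, adjusted p = 0.0269), as was H2-DMb2, the second DM beta chain (1.06 ± 0.35, adjusted p = 0.0443). The H2-Ob call ended without wild-type arrays 3 or 4 or TNBS wild-type arrays 1 or 5 (adjusted p up to 0.0782), and that of H2-DMb2 ended when any of 12 arrays was left out (adjusted p 0.0506 to 0.126). Neither passed between the genotypes with TNBS (-0.75 ± 0.33, adjusted p = 0.168, and -0.74 ± 0.32, adjusted p = 0.166). Another probe set naming H2-Ob together with Gm20506, close to the floor, was higher in the TNBS knockout than in the TNBS wild type (1.01 ± 0.29, adjusted p = 0.0355 over all probe sets). H2-Eb2, an I-E beta chain with little expression, stayed between 2.26 and 3.80 and passed no test.

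H2-Ea differed by genotype in both treatments once TNBS knockout array 2 was left out. The other 6 TNBS knockout arrays read 10.80 to 12.04, all below the 12.55 to 12.87 of the TNBS wild-type arrays. Without TNBS it read 11.89, 11.23, 10.67, 10.52 and 10.78 in knockout arrays, against 12.12, 12.15, 12.03, 12.03 and 12.30 in wild-type arrays. With all arrays the genotype differences were -2.34 ± 0.97 with TNBS (adjusted p = 0.142) and -1.11 ± 1.10 without (adjusted p = 0.71). Without the array they were -1.17 ± 0.20 (adjusted p = 0.00135) and -1.11 ± 0.22 (adjusted p = 0.00688), and TNBS moved H2-Ea by 0.50 ± 0.21 in the knockout and 0.56 ± 0.21 in wild type (adjusted p = 0.152 and 0.0741). A second H2-Ea probe set read 2.28 on that array and 9.49 to 10.90 on the other 6.

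**Figure D3:**
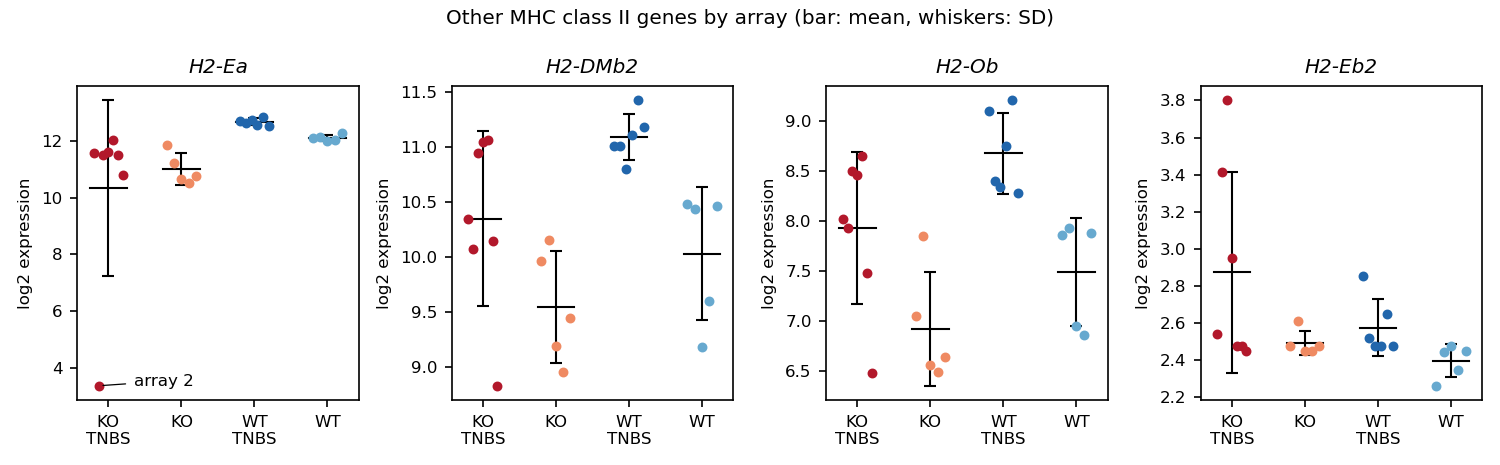
Log2 expression of 4 further class II genes on each array by group (KO, knockout and WT, wild type, each with and without TNBS), with bars at means and whiskers at SD. TNBS knockout array 2, marked, reads 3.36 for H2-Ea, where the other arrays of that group read 10.80 to 12.04.

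These H2 genes and Tnfrsf12a lie on the same chromosome, 17, so sequence that came along with the deleted gene and the loss of Fn14 cannot be told apart for them by these groups. Cd74 and Ciita lie on chromosomes 18 and 16. Between the genotypes with TNBS, Cd74 passed and Ciita did not, and of the 5 H2 members with their own probe set 4 passed and H2-Oa did not. Among 94 measured genes within 1 Mb of the class II members, 21.3% differed between the genotypes with TNBS and 11.7% without TNBS, against 10.5% and 4.83% of all genes. Among 270 genes between Tnfrsf12a and the class II members the shares were 10.7% and 5.56%. Of the 94, 5 lie between the outermost class II members. In the knockout 3 of these 5 were lower and 1 was higher with TNBS, and 3 were lower without TNBS. Their median differences were -0.65 and -0.85, and of all genes 6.72% and 1.91% were called lower. These 5 also moved with TNBS: 4 were higher in the knockout (median 0.83) and 3 in wild type (median 0.62). The shares of all genes higher with TNBS were 4.08% and 10.2%. Outside that stretch the 4 nearest measured genes on each side were read. Among these 8, Gpsm3, a regulator of G-protein signalling, was lower in the TNBS knockout (-0.67 ± 0.15, adjusted p = 0.0054). H2-Ke6 was higher there (0.22 ± 0.06, adjusted p = 0.0204), and none of the 8 passed without TNBS.

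H2-Q2, a class I gene of the same region, was at 7.03 to 8.78 in 10 of 12 knockout arrays and at 2.17 to 2.59 in all 11 wild-type arrays. Knockout array 1 and TNBS knockout array 5 read 2.47, as the wild type did, and they held the highest H2-Ea values of their groups, 11.89 and 12.04. H2-Q2 was chosen after its values had been seen. On TNBS knockout array 2, 6 genes lay at least 1 log2 unit below the other 6 arrays of its group, and 4 of them (H2-Ea, H2-M3, Ly6g6e and Msh5) are on chromosome 17, which holds 4.58% of the measured genes. On the same array 9 genes lay at least 1 log2 unit above the other 6, with 0 on chromosome 17, and the keratin Krt16 was furthest above (8.78, against 2.22 to 3.74 on the others). Just under that cutoff, H2-Bl and H2-Q2 of chromosome 17 lay above the other 6 by 0.91 and 0.80. The array was picked for its H2-Ea value, which is 1 of the 4, and other arrays were not counted at this cutoff. Whether the knockout mice differed in H2 haplotype was not tested.

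The genes that act on class II transcription were described from a list of RFX, NF-Y and Creb1 subunits. With TNBS, 0 of 7 passed in either genotype in limma, where 8.55% of all genes passed in the knockout and 16.5% in wild type. The TNBS differences in wild type were 0.33 ± 0.12 for Rfx5, a subunit of RFX (adjusted p = 0.0706), and -0.32 ± 0.12 for Creb1, an X box factor (adjusted p = 0.0877). Between the genotypes with TNBS, where 10.5% of all genes passed, 1 of 7 did, Nfyc, an NF-Y subunit, by 0.11 ± 0.04 (adjusted p = 0.0466).

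With TNBS, 4.08% of all genes rose in the knockout and 10.2% in wild type. On the path from interferon gamma to Ciita, 1 of 9 measured genes rose in the knockout and 3 in wild type. They were Prdm1, a repressor of Ciita (0.72 ± 0.13 in the knockout, adjusted p = 0.00226, and 1.01 ± 0.13 in wild type, adjusted p = 3.74e-05), and, in wild type, the kinase Jak2 (0.34 ± 0.05, adjusted p = 7.75e-05) and the myeloid and B cell factor Irf8 (0.40 ± 0.11, adjusted p = 0.0124). Ifngr2, a receptor chain, was higher in the TNBS knockout than in the TNBS wild type (0.40 ± 0.11, adjusted p = 0.0241), the only 1 of 9 to pass there. Ifng itself did not pass in any comparison and lay near the floor.

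Proteases and turnover genes followed the members in part. Of 11, 2 rose with TNBS in the knockout and 8 in wild type, and 6 were lower in the knockout with TNBS, with medians of 0.07, 0.30 and -0.21. The shares of all genes called in these directions were 4.08%, 10.2% and 6.72%. Lgmn, the asparagine endopeptidase, differed most between the genotypes with TNBS (-0.99 ± 0.15, adjusted p = 0.000312), followed by Marchf1, a ubiquitin ligase that removes class II from the surface (-0.96 ± 0.26, adjusted p = 0.0214). Marchf1 was higher with TNBS in both genotypes (1.07 ± 0.27 in the knockout, adjusted p = 0.019, and 1.29 ± 0.28 in wild type, adjusted p = 0.00348). Ctsz, cathepsin Z, was the 1 gene of the list whose TNBS effect differed between the genotypes (-0.34 ± 0.07, adjusted p = 0.0151), with 0.20 ± 0.05 in the knockout and 0.54 ± 0.05 in wild type. Ctss, the cathepsin that trims the invariant chain in many presenting cells, rose by 0.14 ± 0.04 with TNBS in wild type (adjusted p = 0.0294), and Ctsb, cathepsin B, was lower in the TNBS knockout than in the TNBS wild type (-0.21 ± 0.05, adjusted p = 0.00563).

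Genes that meet class II on the T cell side, with costimulators, were counted in the same way. Of 11, 4 rose with TNBS in the knockout and 8 in wild type, and 6 were lower in the knockout with TNBS. The shares over all genes were 4.08%, 10.2% and 6.72%. Icos, a costimulatory receptor of activated T cells, showed the largest difference (-2.004 ± 0.31 between the genotypes with TNBS, adjusted p = 0.000404). It rose by 1.40 ± 0.33 with TNBS in the knockout (adjusted p = 0.0114) and by 2.35 ± 0.34 in wild type (adjusted p = 8.04e-05). Cd4, the co-receptor that binds class II, was lower by a smaller margin (-0.42 ± 0.12, adjusted p = 0.0278), as were the inhibitory receptor Ctla4 (-1.44 ± 0.33, adjusted p = 0.00808) and the costimulator Cd40 (-0.98 ± 0.24, adjusted p = 0.012). Of the ligand and co-receptors of Cd74 as a surface receptor, Cxcr4 passed in all 4 group comparisons: -0.87 ± 0.17 with TNBS and -0.98 ± 0.19 without between the genotypes, and 0.86 ± 0.18 and 0.74 ± 0.18 with TNBS in the knockout and wild type. Mif, the ligand, passed in none of them.

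**Figure D4:**
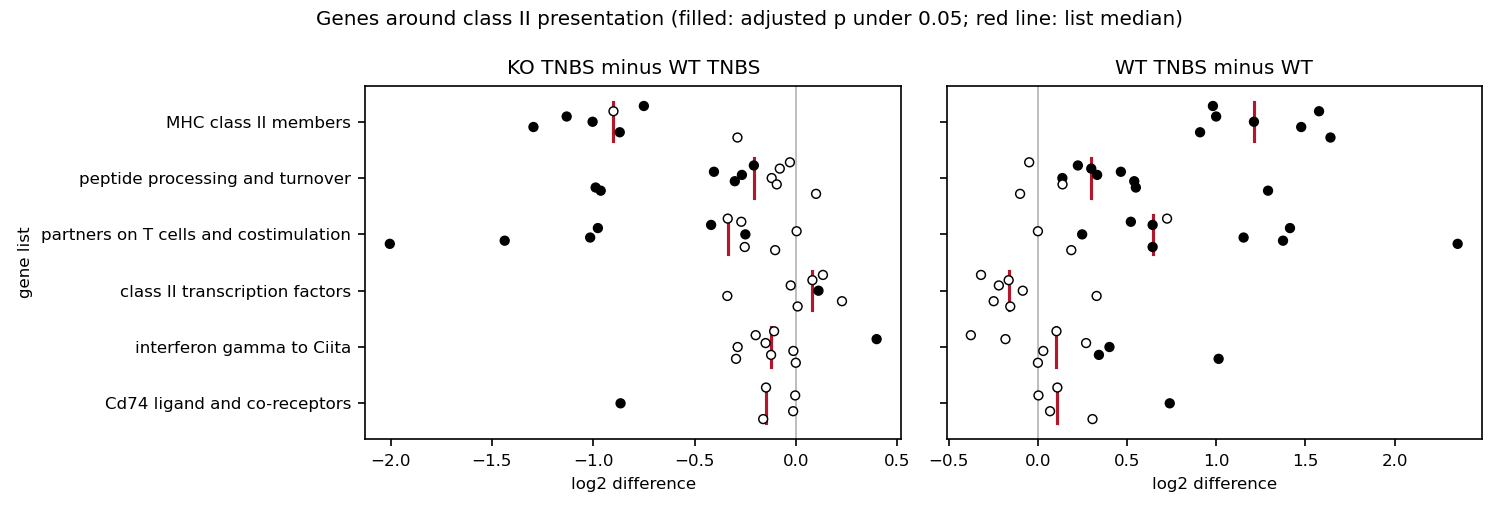
Log2 differences of genes around class II presentation, by gene list, for knockout against wild type with TNBS on the left and TNBS in wild type on the right. Each point is a gene, filled at adjusted p under 0.05 (limma), and the red line is the list median. The members and their T cell partners reach furthest left, and the transcription factors stay close to 0.

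Markers of presenting cells were counted by cell type. In bulk tissue, fewer cells of a type and less RNA per cell cannot be told apart. For scale, 4.08% of all genes rose with TNBS in the knockout and 10.2% in wild type. In the knockout with TNBS, 6.72% were lower and 3.73% higher than in wild type. Among 13 monocyte and macrophage markers, 8 rose with TNBS in the knockout, and in wild type 9 rose and 1 was lower. In the knockout with TNBS, 1 was higher (Mertk, 0.63 ± 0.10, adjusted p = 0.000621) and 9 were lower, such as Mrc1 (-1.08 ± 0.18, adjusted p = 0.00074), Csf1r (-0.88 ± 0.16, adjusted p = 0.00177) and Ccr2 (-1.02 ± 0.22, adjusted p = 0.00487). The mean of that list ran from 7.47 to 8.40 over TNBS knockout arrays and from 8.34 to 8.99 over TNBS wild-type arrays, and Itgam lay at the floor. Among 11 dendritic cell markers, 6 were lower in the knockout with TNBS, such as Zbtb46 (-0.60 ± 0.10, adjusted p = 0.000884) and Clec10a (-0.997 ± 0.29, adjusted p = 0.031), with list means of 4.15 to 4.67 in TNBS knockout arrays against 4.82 to 5.27 in TNBS wild-type arrays, and Xcr1 at the floor. The TNBS counts of this list were 2 of 11 higher in the knockout and 7 in wild type, with medians of 0.03 and 0.41. Fscn1, a marker of mature dendritic cells, rose with TNBS by 0.57 ± 0.09 in the knockout and 0.43 ± 0.10 in wild type (adjusted p = 0.000948 and 0.00428).

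Between the genotypes with TNBS 10.5% of all genes passed, and 4.08% rose with TNBS in the knockout and 10.2% in wild type. Among 11 B cell markers, 0 passed between the genotypes with TNBS in limma, and 4 rose with TNBS in each genotype. Their mean ran from 5.17 to 7.14 over TNBS knockout arrays and from 6.41 to 7.29 over TNBS wild-type arrays, and Pax5 lay at the floor. With TNBS, Ebf1 rose in the knockout (1.03 ± 0.18, adjusted p = 0.00161) and Cd22 in wild type (1.91 ± 0.51, adjusted p = 0.0138). Among 11 T cell markers, 2 were lower in the knockout with TNBS, and 7 rose with TNBS in the knockout and 8 in wild type, such as Cd3d by 1.38 ± 0.23 and 1.16 ± 0.23 (adjusted p = 0.00101 and 0.00195). Of 12 colon epithelium markers 1 was lower in the knockout with TNBS, Krt18 (-0.19 ± 0.04, adjusted p = 0.00331). Of all genes 6.72% were called lower in that comparison. The epithelium list means were 13.15 to 13.27 in TNBS knockout arrays against 13.12 to 13.30 in TNBS wild-type arrays. TNBS lowered 4 of the 12 in the knockout, where 8.55% of all genes passed in either direction. In wild type, where 16.5% passed, 1 was higher and 1 lower. Without TNBS, 2 were higher in the knockout, where 2.92% of all genes were. How much of the members' differences comes with these markers was not tested.

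**Figure D5:**
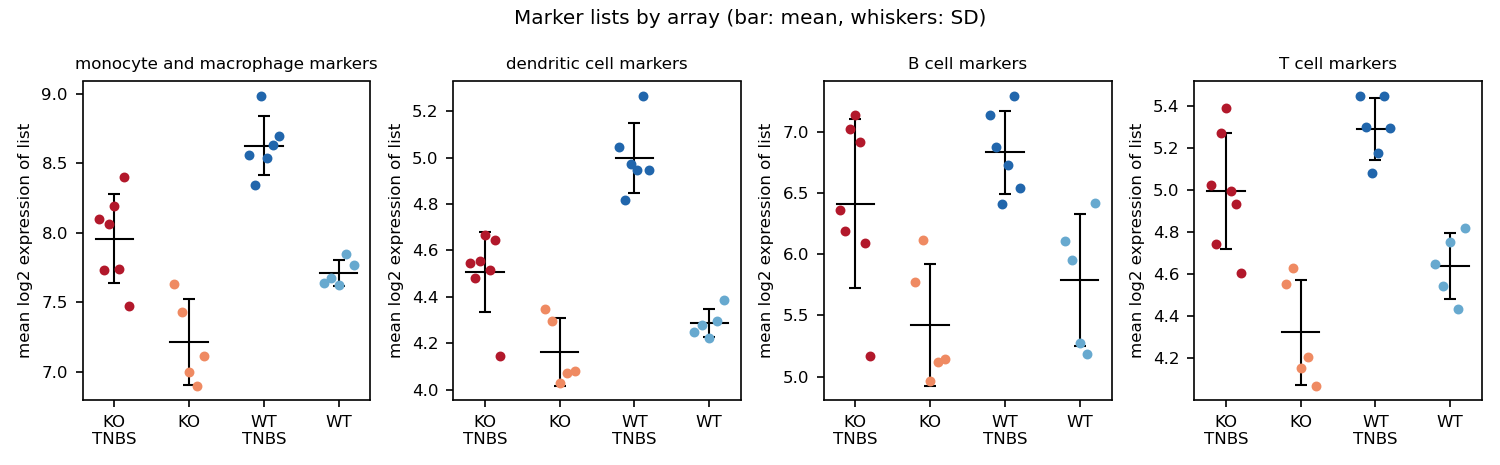
Mean log2 expression of 4 marker lists on each array by group (KO, knockout and WT, wild type, each with and without TNBS), with bars at group means and whiskers at SD. The dendritic cell list does not overlap between the genotypes with TNBS (4.15 to 4.67 in knockout, 4.82 to 5.27 in wild type), and the B cell list does.

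The members were also set against the marker lists from array to array. After group means were removed, H2-Oa and Ciita correlated at 0.868 and 0.799 with the B cell marker mean over 23 arrays, and at 0.341 and 0.206 with the macrophage marker mean. The other 5 members had closer values for the 2 lists, 0.52 to 0.73 with the B cell mean and 0.481 to 0.793 with the macrophage mean, and H2-Eb1 (0.793 with macrophage, 0.695 with B cell markers) was the 1 member of 7 with the higher value for macrophages. With the dendritic cell mean the 7 members gave 0.516 to 0.777. With the T cell marker mean the 7 members gave 0.62 to 0.787, and with the epithelium mean -0.372 to 0.021. Arrays share their tissue piece across all genes, so these values are descriptions of the arrays.

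The genes most like single members were drawn from all others over 23 arrays. For H2-Ab1 they were Icos (r = 0.968), Nrros (0.952), Ncf4 (0.95), Mpeg1 (0.95) and Lcp2 (0.948). For Cd74 they were Ncf4 (0.967), Icos (0.965), Inpp5d (0.959), Rftn1 (0.956) and Mpeg1 (0.951). For Ciita they were Cst7 (0.946), Ptprc (0.93), Tnfrsf13b (0.918), Nxpe3 (0.915) and Slamf6 (0.913). With group means removed, the closest were Rps3a1 to H2-Ab1 (0.833), Sipa1 to Cd74 (0.865) and Fcer2a, the low-affinity IgE receptor of B cells, to Ciita (0.872). Icos and Ncf4 each stood among the 5 closest of both H2-Ab1 and Cd74.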

How the data were processed

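Whole-colon RNA was measured on 23 Affymetrix arrays. For 45101 probe sets the authors deposited values on a log2 scale. RMA and GCRMA are named per the submitters' processing notes. Which of them made the values is not given here, nor is a version. Names came from GEO's annotation of the platform, updated through GRCm38.p6 gene IDs. Of them 34958 named 1 gene, 932 several and 9211 none, and of several probe sets for 1 gene the brightest on average was kept, which left 18194 genes.

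A linear model with a mean for each group was fitted with limma 3.58.1 in R 4.3.3 (all 23 arrays, 19 residual and 0.475 prior degrees of freedom), with p-values adjusted by Benjamini-Hochberg over all genes. Single probe sets were adjusted over all probe sets. The number of arrays limits precision. The fit was tested on simulated data. Figures were drawn with matplotlib 3.10.9 in Python 3.11.15.

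Members and the 17 gene lists were chosen with earlier results of these data known. The genes named were all members, the other class II genes, up to 4 genes per list (3 for cell types) with the smallest p among those called, the 5 genes most like H2-Ab1, Cd74 and Ciita, and the 4 nearest neighbours on each side. Not all are given. Others named (Rfx5, Creb1, Ifng, Ctss, Mif, Mertk, H2-Q2, and markers at the floor) were added after their values were seen. Replicate numbers were not used to pair arrays in the main fit. After group means were removed, same-numbered arrays of compared groups correlated at -0.46 to 0.431 over all genes. Arrays with different numbers were not compared in this way, so whether the numbers pair arrays was not settled. Alternatives were limma's trend and robust options, a fit to only the compared groups, weighted arrays, dropping dim genes, the mean of or every probe set, quantile normalization, median centring, a floor at 5, blocking by replicate number, and omitting each array in turn.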

Additional observations from a re-analysis of the deposited data

Results flagged for a closer look

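Within-group outliers were sought for 11 class II genes in 4 groups, 44 tests, of which 5 gave a value far from the rest, where chance gives about 1 in 20. TNBS knockout array 2 was low for H2-Ea (3.361, next 10.804), and TNBS knockout array 7 was low for H2-Oa (3.816, next 5.129). Wild-type array 5 without TNBS was high for H2-DMa (8.266, next 7.656) and Cd74 (12.781, next 12.256). Knockout array 2 without TNBS was high for H2-Eb2 (2.608, next 2.474), near the floor.

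The TNBS effect differed between the genotypes for 2 genes of the lists. The difference was -0.34 for Ctsz (adjusted p = 0.0151), and -0.303 for Krt18, a keratin of simple epithelium (adjusted p = 0.012), whose TNBS difference was 0.06 ± 0.04 in the knockout and 0.36 ± 0.04 in wild type.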

How the results depend on the processing

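TNBS in the knockout gave 4 members called, but 1 with the 2 groups alone, 4 to 6 under the other settings, and 3 to 7 with each array left out, the 7 without TNBS knockout array 7. TNBS in wild type gave 7 throughout, except 6 with a floor at 5. Knockout against wild type with TNBS gave 5 to 6 throughout, and the 7 differences stayed negative. Knockout against wild type without TNBS gave 1, but 0 with the 2 groups alone, every probe set or the replicate number as a block, 2 with the mean of probe sets or median centring, 3 with dim genes left out, and 0 to 3 with each array left out. The difference of TNBS effects gave 0 throughout and could not be run with 2 groups alone. The labels do not say that the replicate number marks a shared mouse; with it as a block the counts were 6 for TNBS in the knockout, 7 in wild type, and 5 with and 0 without TNBS between the genotypes. Uncalled values changed sign: for the difference of TNBS effects, H2-Ob was 0.069 and H2-DMb2 0.002 with the block, and with each array left out they ran from -0.292 to 0.069 and from -0.398 to 0.002, while H2-Ea with TNBS in the knockout ran from -0.95 to 0.496, the highest without TNBS knockout array 2. Over all genes, scaling moved the share of calls that were higher. For TNBS in the knockout it was 47.8%, and 59.4% with median centring. For TNBS in wild type it was 62%, 38.3% with quantile normalization and 50.5% with median centring. Between the genotypes with TNBS it was 35.7%, 49.9% with quantile normalization, 49.4% with every probe set and 79.8% with median centring, which made 7008 calls, against 1902. Without TNBS it was 60.4%, and 50% with quantile normalization. For the difference of TNBS effects it was 31.1%, and 53.6% and 59% with the 2 scalings. Other counts of calls moved by over 1.5 times. TNBS in the knockout had 1556 calls, 856 with the 2 groups alone, 2402 with every probe set and 1014 without knockout array 3. TNBS in wild type had 2998, and 5041 with every probe set. Between the genotypes with TNBS there were 3971 with every probe set and 1230 with the block. Without TNBS there were 879, 288 with the 2 groups alone, 1492 with every probe set, 458 without wild-type array 1 and 484 without knockout array 4. The difference of TNBS effects had 363, 172 with the block, 238 without wild-type array 1 and 213 without knockout array 4. The causes were not tested.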

Other observations

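TNBS knockout array 7 held the lowest mean of its group for several lists at once. Its mean over the 7 members was 8.38, and its list means were 7.47 for monocyte and macrophage markers, 4.15 for dendritic cell markers, 5.17 for B cell markers and 4.61 for T cell markers. Its colon epithelium mean, 13.27, was the highest of the group.

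Markers of skeletal muscle and of squamous epithelium differed between arrays by more than the members did, and the source of their signal was not tested. The mean of 8 skeletal muscle markers ran from 5.63 to 8.99 over TNBS knockout arrays and 6.31 to 8.70 over knockout arrays without TNBS, against 3.17 to 7.90 over TNBS wild-type arrays and 2.98 to 5.42 over wild-type arrays without TNBS. Without TNBS 3 of the 8 were higher in the knockout, Tnnt3 (4.22 ± 1.10, adjusted p = 0.0318), Atp2a1 (3.53 ± 0.97, adjusted p = 0.0408) and Acta1 (3.28 ± 0.79, adjusted p = 0.0217), and 0 of 8 passed with TNBS in limma. Over all genes, 2.92% were higher in the knockout without TNBS, and 10.5% passed between the genotypes with TNBS. With TNBS, 4.08% of all genes rose in the knockout and 10.2% in wild type. Krt14 is a keratin of squamous epithelium. Of 9 squamous epithelium markers, 3 rose with TNBS in the knockout and 4 in wild type, among them Krt14 by 3.21 ± 0.80 and 4.11 ± 0.82 (adjusted p = 0.0163 and 0.00178). After group means were removed, the skeletal muscle mean correlated with the 7 members at -0.423 to -0.128 and the squamous mean at -0.195 to 0.394 over 23 arrays. Their part in the members' differences was not tested.

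Further lists were counted between the genotypes with TNBS, where 6.72% of all genes were called lower. Of 8 endothelial markers 3 were lower in the knockout, among them Pecam1 (-0.95 ± 0.14, adjusted p = 0.000253), with list means of 5.80 to 6.06 over TNBS knockout arrays and 6.09 to 6.41 over TNBS wild-type arrays. Of 9 fibroblast and smooth muscle markers 1 was lower, Pdgfra (-0.42 ± 0.07, adjusted p = 0.00103), and of 4 markers of group 3 innate lymphoid cells 1 was lower, Il1r1 (-0.58 ± 0.15, adjusted p = 0.0186).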
